A study of Drosophila melanogaster with 3 samples.

Results

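The Mediator and TAF genes were taken as the protein-coding genes of Drosophila melanogaster whose symbol begins with MED or Taf followed by a digit. By this rule there were 40 genes, 25 Mediator genes and 15 TAF genes, of 13945 protein-coding genes on the 6 chromosome arms used. They were examined in chromatin immunoprecipitation and sequencing (ChIP-seq) data for D19A, a C2H2 zinc finger protein with the ZAD domain that many insect zinc finger proteins carry. The single group of samples was 3 biological replicates of whole embryos, mixed in sex, 0 to 20 h old, from a transgenic line making D19A with eGFP at its C-terminus. Its labels give an anti-GFP precipitation, with D19A in the antibody field, and a fragment size range of 200 to 800 bp. The promoter that drives the tagged protein is not given in the sources used here, and whole embryos mix many cell types and ages. The deposited lists give peak positions and a signal value but no read counts, so depth is unknown, and peak lists could not be used to check the labelled stage against marker genes. With 1 group and no second condition, every value below is a description without a test.

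Mediator is a large complex that links transcription factors bound at enhancers and promoters to RNA polymerase II. It is divided into head, middle and tail modules joined by the scaffold subunit MED14, with a separable kinase module. TBP-associated factors (TAFs) join the TATA-binding protein in TFIID, which recognises core promoters and starts the assembly of the transcription machinery, and many of them pair through histone folds; several also belong to the SAGA coactivator.

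A gene was called marked when a peak summit of the list that passed the authors' irreproducible discovery rate (IDR) procedure lay within 250 bp of any of its annotated transcription start sites (TSSs). This list holds 7769 peaks. Of the 40 Mediator and TAF genes, 11 were marked (27.5%), and of all protein-coding genes 15.3% were. The marked genes were MED4, MED6, MED16, MED17, MED27, MED30 and MED31, and Taf4, Taf5, Taf10 and Taf10b. They came from all of the larger modules, with 3 of 9 head genes, 2 of 8 middle genes, 2 of 7 tail genes and 3 of 8 genes of the histone-fold TAF list, while the scaffold gene MED14 was not marked. That list leaves out Taf3, Taf9 and Taf12L, also relatives of histone-fold TAFs, and none of these 3 was marked. In all, 7 of 25 Mediator genes (28%) and 4 of 15 TAF genes (26.7%) were marked, so the shares of both complexes lay close together. The strongest 1942 IDR peaks marked 4 of the 40 genes, Taf5, MED27, MED30 and MED17, and 4.43% of all protein-coding genes. With a window of 100 bp, 5 members were marked, and 5.46% of all protein-coding genes. When support was asked from the strongest 7769 peaks of both remaining replicates, 7 members were marked without replicate 1 (11.1% of all genes), 5 without replicate 2 (10.7%) and 7 without replicate 3 (12.4%).

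The sequences under 4 member summits are shown because they carry the composition described further on. The stretch between Taf10b and Taf10 is shown because both genes share 1 peak. The 101 bp windows are centred on the IDR summits of MED27 (chr3R:5654990-5655090, plus strand), MED30 (chr3L:654210-654310, minus strand), MED17 (chr3R:18188852-18188952, plus strand) and Taf4 (chr3L:16113587-16113687, plus strand). Each is written 5′ to 3′ on the strand of its gene, from the RefSeq sequence of the dm6 build, and none holds an annotated exon. Capitals mark unbroken runs of at least 8 bases that are all A or T.
MED27: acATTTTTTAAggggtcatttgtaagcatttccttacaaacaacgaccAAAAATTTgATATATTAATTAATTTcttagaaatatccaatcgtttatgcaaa
MED30: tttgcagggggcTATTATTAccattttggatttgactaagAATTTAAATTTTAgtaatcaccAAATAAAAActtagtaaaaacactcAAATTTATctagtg
MED17: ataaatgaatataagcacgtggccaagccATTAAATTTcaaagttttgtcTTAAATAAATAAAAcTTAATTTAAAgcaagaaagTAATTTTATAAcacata
Taf4: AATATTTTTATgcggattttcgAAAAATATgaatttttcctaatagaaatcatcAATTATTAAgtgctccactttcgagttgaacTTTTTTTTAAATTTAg
The longest such run was 16 bp at MED27, 13 bp at MED30, 14 bp at MED17 and 15 bp at Taf4. These are not the 4 strongest member summits. Taf5 and MED31, not shown, ranked above Taf4, and their longest stretches of A or T were 15 and 7 bp. The 44 bp between the start sites of Taf10b and Taf10 (chr2L:2767846-2767889, plus strand) follow, with capitals on the bases that read CGATA on the other strand.
Taf10b-Taf10 gap: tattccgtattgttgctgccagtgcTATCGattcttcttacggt
CGATA is the part of the DREF site TATCGATA that was searched on its own. Of 44 bp windows centred on the 1849 protein-coding promoter summits of the IDR list, 7.73% held it. The gap is not such a window, since the summit of its peak lies outside it, in Taf10b.

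The marked promoters ranked from 806 to 6756 of the 7769 IDR peaks when ordered by the signal value that the authors deposited, which carries no stated normalization and was used only to rank peaks within a list. Their median rank was 2598 (quartiles 1738 and 4159), against 3778 (quartiles 1610 and 5667) for all marked protein-coding genes. Each member peak had the same rank in the IDR list and in the list called on the pooled libraries, so those lists are not separate evidence.

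**Figure D1:**
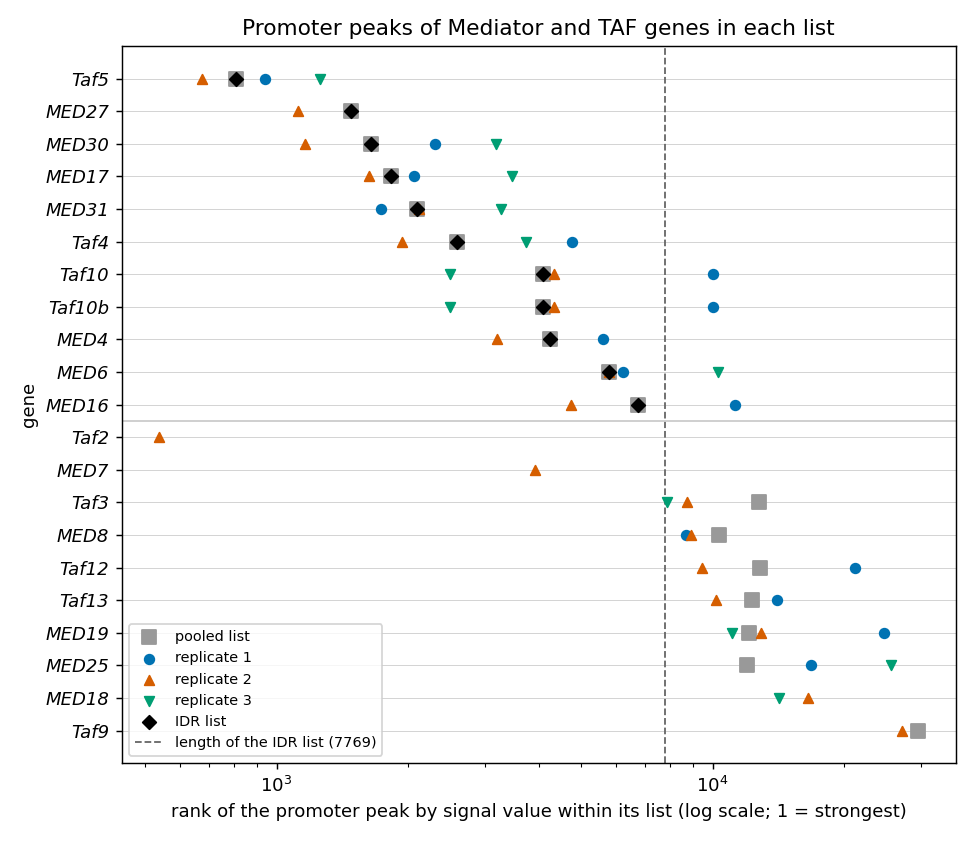
Rank of the promoter peak of each of the 21 members with a promoter summit in any list (rows), by the authors' signal value within each list, on a log axis where 1 is the strongest peak. Black diamonds are the IDR list, grey squares the pooled list and coloured symbols the replicates; the 11 members above the grey line are marked, and MED27 has a symbol from replicate 2 alone among the replicates.

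Of the TAF genes, Taf5 (FBgn0010356), which encodes a WD40-repeat subunit at the core of TFIID, had the strongest IDR peak within 250 bp of a start site among the 40 genes. Its IDR peak (2R, 10879675 to 10880014) ranked 806 with a signal value of 1563. The overlapping peaks ranked 942, 674 and 1260 in replicates 1, 2 and 3, each a list of 30000 peaks, with signal values of 399, 866 and 283. The summit lay 165 bp upstream of the TSS in the IDR list and 166, 176 and 160 bp upstream in the replicates. The 3 replicate summits, and the IDR summit drawn from the same libraries, thus fell within a narrow stretch of intergenic sequence. They lay between Taf5 and its divergent neighbour Pex6, which encodes an ATPase of peroxisomal protein import. Both start sites are 301 bp apart, and the IDR summit was nearer to Pex6, at 136 bp.

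Taf4 (FBgn0010280), which encodes a histone-fold subunit that pairs with Taf12, was the only marked member without a divergent neighbour. Its peak (3L, 16113415 to 16113858) ranked 2598 in the IDR list with a signal value of 671. It ranked 4763, 1937 and 3743 in replicates 1, 2 and 3, with signal values of 116, 419 and 126. The summit lay inside the gene, in an intron, 153 bp upstream of an internal TSS, and the 3 replicate summits lay 164, 141 and 180 bp upstream of that site. Taf4 has 3 annotated TSSs, and counting the most 5′ one alone left it unmarked. A second, weak peak stood near the 3′ end, its summit 7695 bp downstream of the first in the pooled list, at rank 26054 of the pooled list and at ranks 25051, 27348 and 28105 of the replicate lists.

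Taf10 (FBgn0028398) and Taf10b (FBgn0026324) are paralogues that stand head to head with start sites 45 bp apart, so 1 peak marked both and they count as 1 summit. The peak (2L, 2767602 to 2768045) ranked 4085 with a signal value of 456. It ranked 10004, 4327 and 2496 in replicates 1, 2 and 3, with signal values of 61.6, 218 and 173, so by rank it was weakest in replicate 1 and strongest in replicate 3. The summit did not lie between the start sites. It stood 21 bp into Taf10b, in its 5′ UTR, and 66 bp upstream of Taf10, and the replicate summits stood 31, 21 and 24 bp into Taf10b.

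Of the head genes, MED30 (FBgn0035149) encodes a subunit found in animal Mediator and MED17 (FBgn0038578) a central one. The MED30 peak (3L, 654106 to 654374) ranked 1648 with a signal value of 943, and 2314, 1165 and 3186 in replicates 1, 2 and 3, where its signal values were 207, 604 and 143. Its summit was 171 bp upstream of MED30 in the IDR list and 137, 171 and 132 bp upstream in the replicates. The divergent neighbour is Rev1, which encodes a translesion DNA polymerase, 274 bp away, and the IDR summit was nearer to Rev1, at 103 bp. The MED17 peak (3R, 18188789 to 18189048) ranked 1827 with a signal value of 870, and 2070, 1633 and 3473 in the replicates, where its signal values were 225, 475 and 134. Its summit was 170 bp upstream of MED17 in the IDR list and 177, 177 and 150 bp upstream in the replicates. Here the neighbour is CG12321, 365 bp away, and the summit was 195 bp from it, so the MED17 start site was the nearer. The peaks of MED30 and MED17 were both present in every replicate and, by rank, both weakest in replicate 3.

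MED6 (FBgn0024330), the remaining marked head gene, differed in position. Its peak (3R, 9767565 to 9768008) ranked 5799 with a signal value of 333, and 6223, 5801 and 10318 in replicates 1, 2 and 3, with signal values of 93.2, 168 and 58.8. The summit lay 28 bp downstream of the nearest of its 5 annotated TSSs, in its 5′ UTR, and the replicate summits lay 38, 41 and 4 bp downstream. It is not at the most 5′ TSS. The neighbour is Naa80, which encodes an N-acetyltransferase of actin, with the nearest pair of start sites 19 bp apart, the narrowest gap among the members, and the summit 47 bp from the Naa80 site.

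In the middle module, MED31 (FBgn0037262) and MED4 (FBgn0035754) were marked, and in both the summit lay beyond the start site of the divergent neighbour. The MED31 peak (3R, 4641580 to 4641940) ranked 2102 with a signal value of 792, and 1734, 2121 and 3269 in replicates 1, 2 and 3, with signal values of 255, 392 and 140. Its summit was 181 bp upstream of MED31, in an intron of CG9775 and 56 bp downstream of the CG9775 start site. The replicate summits were 191, 152 and 136 bp upstream of MED31. The MED4 peak (3L, 7250502 to 7250945) ranked 4233 with a signal value of 442, and 5599 and 3207 in replicates 1 and 2, with signal values of 102 and 281; no peak of replicate 3 overlapped it. Its summit was 197 bp upstream of MED4, the farthest of the marked members, and the replicate summits were 175 and 133 bp upstream. That position is 84 bp into the antisense RNA gene asRNA:CR43470 and also within the 3′ UTR of CG14830, so 3 annotated genes meet there.

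In the tail, the peak of MED27 (FBgn0037359; 3R, 5654899 to 5655168) ranked 1483 in the IDR list with a signal value of 1019, the second strongest among the marked members. In the single libraries it was present in replicate 2 alone, at rank 1123 with a signal value of 615, and no peak among the 30000 of replicate 1 or of replicate 3 overlapped it. Of the 494 promoter summits among the strongest 1942 IDR peaks, 2 (0.405%) overlapped a peak of only 1 replicate, and the MED27 summit was 1 of them. The cause was not tested. The summit was 99 bp upstream of MED27 in the IDR list and 114 bp upstream in replicate 2, in the 278 bp between MED27 and elm. The other marked tail gene, MED16 (FBgn0034707), had the weakest peak (2R, 22182845 to 22183288), at rank 6756 with a signal value of 292. It ranked 11244 and 4730 in replicates 1 and 2, with signal values of 55.6 and 202 and summits 43 and 75 bp upstream, and was absent from replicate 3. In the IDR list the summit was 71 bp upstream of MED16 and 188 bp from its neighbour CG11170. Replicates 1 and 2 also held a peak at the 3′ end of MED16, 2739 and 2733 bp downstream of the TSS, which the IDR list lacks. This 3′ peak ranked 9616 in replicate 1, above the promoter peak there, and 11509 in replicate 2, below it.

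Counted by distinct summits, 7 of 10 member summits were overlapped by a peak in all 3 replicate lists, 2 by a peak in 2 lists and 1 by a peak in 1 list. Among all 1849 protein-coding promoter summits, 94.4% were overlapped in 3 lists, 4.98% in 2 and 0.649% in 1. Against the strongest 7769 peaks of each replicate, 5 members had a peak supported in every replicate (12.5% of 40), where 10.2% of all protein-coding genes did. They were MED17, MED30, MED31, Taf4 and Taf5. The 6 other marked members each lacked such a strong peak in at least 1 replicate. Replicate 2 held the best-ranked overlapping peak at 8 of the 10 member summits, replicate 1 at that of MED31 and replicate 3 at that of Taf10 and Taf10b. Over all promoter summits replicate 2 was also the most frequent best, at 53.2%, against 18.3% for replicate 1 and 28% for replicate 3.

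Whole lists gave larger counts, as they go deeper. The pooled list of 30000 peaks put a promoter summit at 18 of the 40 genes (45.0%) and at 31.0% of all protein-coding genes. Replicate 1 put one at 15 members (37.5%) and at 30.6% of all. In replicate 2 the count was 20 members (50%), and 35.8% of all. Replicate 3 gave 12 members (30.0%), and 28.4% of all. The 3 replicates averaged 15.7 ± 4.04 members (SD, n = 3). Replicate 2 was thus the highest in members and in all genes, and the member share in replicate 3 lay close to the share of all genes. With each list limited to its strongest 7769 peaks, the members with a promoter summit numbered 7, 13 and 7 in replicates 1, 2 and 3, or 9.0 ± 3.46 (SD, n = 3), and the shares of all protein-coding genes were 14.5%, 18% and 13.5%.

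**Figure D2:**
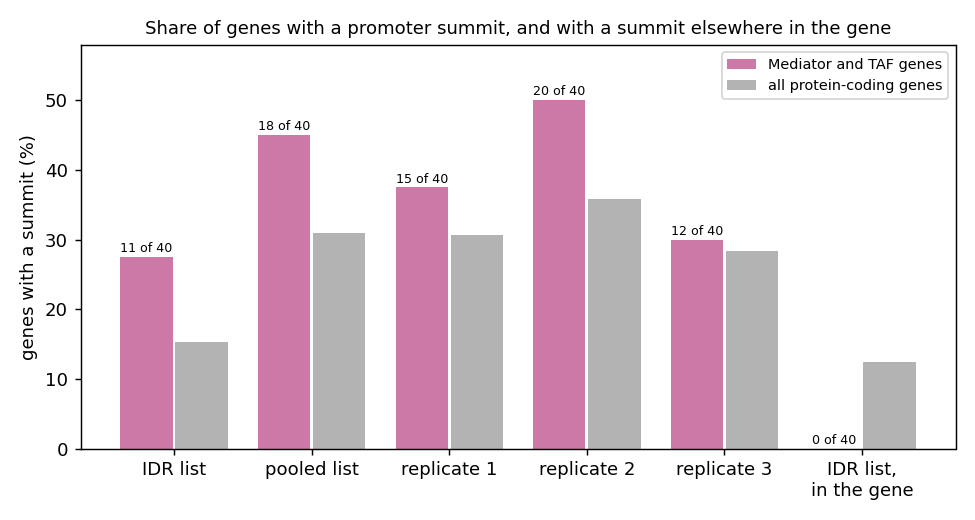
Percent of the 40 Mediator and TAF genes (pink) and of all 13945 protein-coding genes (grey) with a promoter summit in each list, and, at the right, with an IDR summit in the gene outside the promoter window. Numbers above the bars count members; the member bar is the taller in the 5 promoter counts, by the least in replicate 3 (30.0% and 28.4%), and no member has a summit elsewhere in the gene.

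No member carried an IDR summit inside the gene outside the promoter window, while 12.5% of all protein-coding genes did. The members are short, from 560 to 10463 bp with a median of 1318 bp, where the median of all protein-coding genes was 2166 bp. Among the 12062 protein-coding genes no longer than the longest member, 5.82% carried such a summit. Their median length was 1850 bp, so they were still longer than the members. Outside the IDR list, peaks lay in Taf4 and MED16 as given above. Others lay in Taf3 in replicate 3 (ranks 21892 and 23026), and in Taf10 in replicates 1 and 2 (ranks 19289 and 28171).

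By arm, the marked members were 4 of 10 on 3R, 3 of 12 on 3L, 2 of 7 on 2L and 2 of 5 on 2R, with none of 4 on X and none of 2 on chromosome 4. The shares of all protein-coding genes marked were 15.9% on 3R, 17.7% on 3L, 15.0% on 2L, 13.5% on 2R, 13.4% on X and 35.0% on chromosome 4. The 2 members on chromosome 4 were MED26, which encodes a subunit that contacts elongation factors, and Taf3, a histone-fold TAF.

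Most marked summits were upstream of the member, 9 of 11 (81.8%), against 80.2% of all marked protein-coding genes. The distance from the TSS had a median of 153.0 bp (quartiles 68.5 and 170.0), against 132.0 bp (quartiles 82.0 and 180.0) for all. The members' summits thus lay at distances typical of all marked genes.

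**Figure D3:**
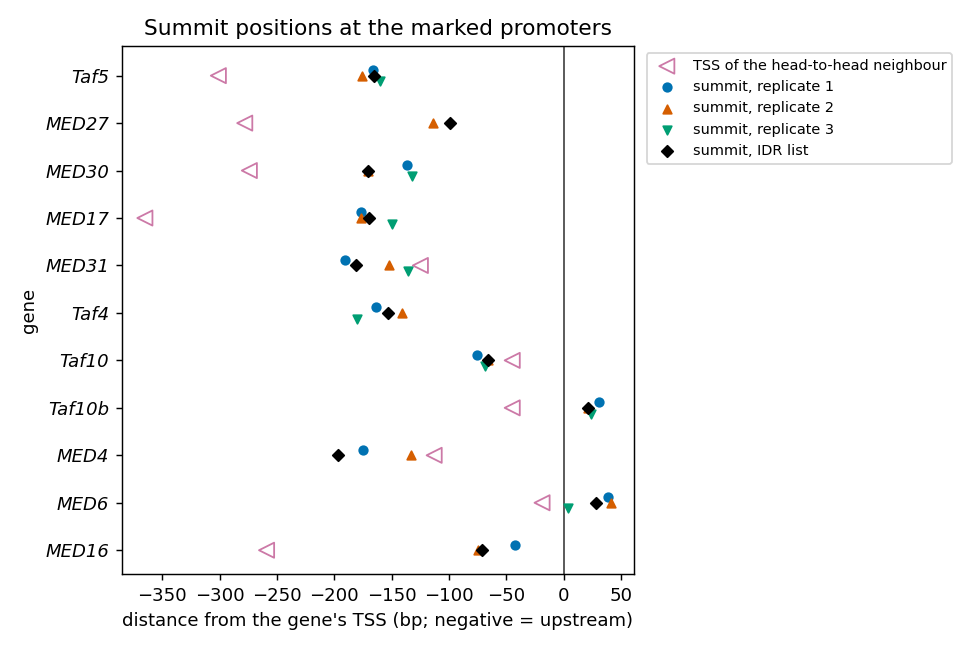
Position of the summit relative to the member's TSS (bp, negative upstream) for the 11 marked members, in the IDR list (black) and in the replicates (coloured), with open triangles at the start site of the divergent neighbour. The summits of MED31, Taf10 and MED4 lie beyond the neighbour's start site, those of Taf10b and MED6 lie downstream of their own, and Taf4 has no neighbour.

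Divergent promoters were frequent among the members. A start site of another gene lay head to head within 500 bp upstream in 27 of 40 (67.5%), against 29.6% of all protein-coding genes. The limit set the level: within 200 bp it was 16 members (40.0%, against 12%) and within 1000 bp it was 32 (80.0%, against 39.6%). Among members with such a neighbour 10 of 27 (37.0%) were marked, and among all protein-coding genes with one 26.1% were. Without a neighbour, 1 of 13 members (7.69%) was marked, the exception being Taf4, and 10.8% of all such genes were. The order among genes without a neighbour turned with the limit: at 200 bp 6 of 24 such members (25%) were marked, against 14.7% of all such genes, and at 1000 bp, where Taf4 has a neighbour, 0 of 8, against 9.89%. With a neighbour the shares were 5 of 16 members (31.2%) at 200 bp, against 20% of all, and 11 of 32 (34.4%) at 1000 bp, against 23.6%.

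All 10 marked members with a divergent neighbour had a neighbour marked by the same rule, against 80% of the 1079 marked protein-coding genes with one. Since the window reaches 250 bp to either side of each start site, a summit between close start sites marks both genes by construction. The gap between start sites ran from 19 to 365 bp with a median of 192.0 bp for marked members, and from 46 to 464 bp with a median of 115.0 bp for unmarked ones. Its median was 123.0 bp over the 27 members with a neighbour, against 242.0 bp over all protein-coding genes with one. The summit lay between both start sites in 5 members (Taf5, MED27, MED30, MED17 and MED16). It was nearer to the member's own TSS in 5 and nearer to the neighbour's in 5. A summit in such a gap cannot be assigned to either gene from position alone.

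The remaining 29 genes had no IDR summit within 250 bp. Of these, 7 had a weaker promoter summit in the pooled list. MED8, a head gene, ranked 10354 there with its summit 165 bp upstream, and MED19 of the head ranked 12143 at 132 bp downstream. MED25 of the tail ranked 11990 at 202 bp upstream. Taf12, the partner of Taf4, ranked 12879 at 24 bp downstream, and Taf13, a histone-fold TAF that pairs with Taf11, ranked 12341 at 160 bp upstream. Taf3 ranked 12779 at 141 bp downstream, and Taf9, the histone-fold partner of Taf6, ranked 29526 at 55 bp upstream, near the end of the list. All 7 ranked below the weakest marked member. Down to that member's rank the pooled and IDR lists hold the same peaks, so this order follows from the lists. Their divergent neighbours, where they have one, are CG8929 for MED8, CG7430 for MED19, Hs6st, a heparan sulfate sulfotransferase gene, for MED25, the heme oxygenase gene Ho for Taf12, and nesd for Taf13.

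A replicate list alone placed a summit at 3 further promoters. MED7, a middle gene, had one in replicate 2 at rank 3908, 88 bp upstream, with Cap-H2, which encodes a condensin subunit, as its neighbour. MED18 of the head had summits in replicate 2 at rank 16584, 30 bp upstream, and in replicate 3 at rank 14169, 179 bp upstream, with Gcna as its neighbour. Taf2, which contacts the initiator element of core promoters, had one in replicate 2 at rank 539, 243 bp upstream.

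Taf2 was a matter of the window. An IDR peak of rank 573 (3L, 9888695 to 9889140, signal value 1910), stronger than that of any marked member, had its summit 261 bp upstream of Taf2. In replicates 1, 2 and 3 its ranks were 734, 539 and 598, and its summits were 268, 243 and 268 bp upstream. The same summit lay 160 bp from the start site of CalpB, the divergent neighbour, which encodes a calpain protease and was marked. Taf2 was the only unmarked member with a marked neighbour. Next beyond it came MED15, a tail gene contacted by activators, whose nearest IDR summit was 525 bp upstream (rank 1011; 1275, 812 and 1257 in the replicates) and 288 bp from CG4297, and MED25, at 1374 bp (rank 3457). Just inside the window were MED30, MED31 and MED4 at 171, 181 and 197 bp. No member had its nearest IDR summit between 197 and 261 bp from a start site.

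No list placed a promoter summit at the other 19 genes. In the head these were MED11, MED20 and MED22, and in the middle MED1, which contacts nuclear receptors, MED9, MED10, MED21 and MED26. In the tail they were MED15, MED23, MED24 and MED28, and the scaffold gene MED14 was among them. The TAF genes were Taf1, the largest TFIID subunit, its partner Taf7, the histone-fold genes Taf6, Taf8 and Taf11, and Taf12L, a relative of Taf12. A pair of them share a divergent promoter with another regulator gene, MED20 with Trf, which encodes a TBP-related factor, at 47 bp, and Taf6 with ash1, which encodes a histone methyltransferase, at 333 bp. Both were named after their values were seen. The remaining neighbours in this class were Nup75 for MED9, PDCD-5 for MED10, CG43867 for MED22, Gmer for MED23, CG4553 for MED28, EMC1 for Taf7 and und for Taf11, all unmarked. Over the 29 unmarked genes the nearest IDR summit lay at a median of 4337 bp and at most 390541 bp (MED21), and 2 had one within 1000 bp.

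The sequence at the member summits was rich in A and T, as it was at all protein-coding promoter summits. In 101 bp centred on the summit, the 10 distinct member summits held 69.5% ± 11.1 A or T (SD, n = 10 summits, which share their libraries), against 66.0% ± 11 over all 1849 protein-coding promoter summits. The windows centred 200 bp to either side held 56.3% at the members, against 59.2% at all. The centre was above its flanks in 9 of 10 member summits, and in 69.8% of all. Taf5 had the highest share (84.2%, flanks 63.4%), followed by MED17 (77.2%, flanks 58.9%), Taf4 (76.2%, flanks 51.5%), MED27 (74.3%, flanks 53.0%) and MED30 (73.3%, flanks 68.8%). MED4 held 69.3%, MED31 and MED16 held 68.3% each, and the Taf10 and Taf10b summit held 60.4%. MED6 went the other way, with 43.6% at the summit and 51.5% in its flanks. The strongest 7769 peaks of each replicate gave 71.4%, 71.5% and 74.9% at 7, 12 and 6 member promoter summits in replicates 1, 2 and 3 (SD 1.98, n = 3). These sets of summits differ, and that of replicate 3 lacks MED6. The SD therefore also holds differences in which genes were included.

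**Figure D4:**
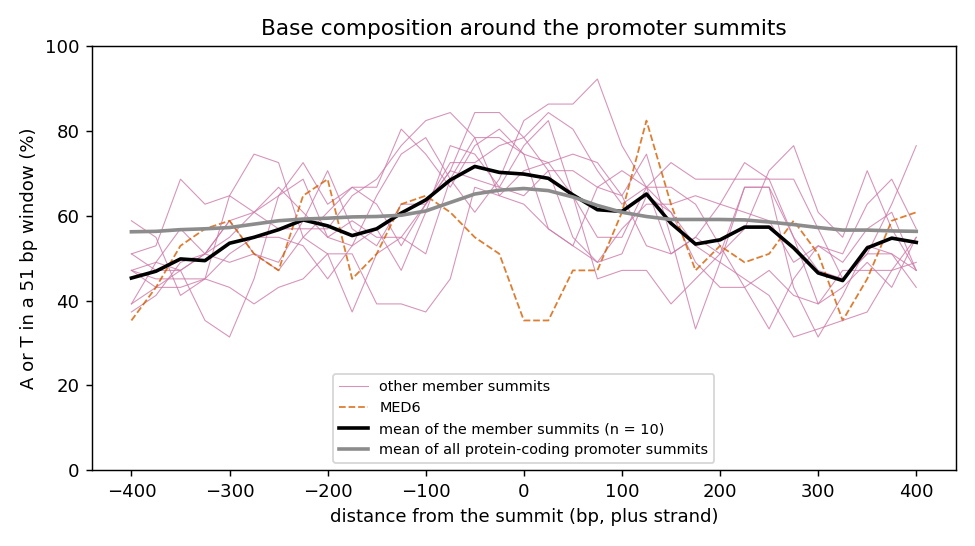
Percent of A or T in 51 bp windows against distance from the IDR summit (bp, plus strand) for the 10 distinct member summits (thin lines), their mean (black) and the mean of all 1849 protein-coding promoter summits (grey). The member mean is 69.8% at the summit, 45.3% at 400 bp to the left and 53.7% at 400 bp to the right. The mean of all is 66.4%, 56.2% and 56.3% at these positions. The member mean is highest 50 bp to the left of the summit (71.6%), and MED6 (dashed) falls to 35.3% at the summit.

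Runs of A and T ran through these windows. The longest run in the 101 bp was 16 bp at MED27, 15 bp at Taf5 and Taf4, 14 bp at MED17, 13 bp at MED30, 10 bp at MED4 and MED16, 8 bp at Taf10 and Taf10b, and 7 bp at MED31 and MED6. Its median was 11.5 bp at the members, against 10 bp at all promoter summits, and 8 of 10 member summits (80.0%) had a run of at least 8 bp, against 76.3% of all. The 5 longest runs stood at the 4 members with a peak among the strongest 1942 and at Taf4. MED31, with 7 bp, ranked above Taf4, and a relation of run length to rank was not tested. The share with a run thus differed little from that of all promoter summits.

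Motifs of known promoter factors were searched on both strands in the same windows. The DREF site TATCGATA, the motif GGTCACACT, the E-box CAGCTG, the Zelda site CAGGTAG, the GAGA repeat GAGAGAG and the letters AAATATAT were in none of the 10 member windows. In all 1849 promoter windows their shares were 1.84%, 1.14%, 3.79%, 0.216%, 1.84% and 7.79%, in that order. CGATA, which also lies within TATCGATA, was in 1 member window, that of Taf10 and Taf10b, and in 17.2% of all. That match (2L, 2767838 to 2767842) lies in Taf10b, and it is not the match printed in capitals in the gap (2L, 2767871 to 2767875), which reaches past the window's end. TATAAA was in 2, those of Taf5 and MED17, and in 26.2% of all. A match gives letters in a window and says nothing of which factor binds there.

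Genes of the same complexes with other names gave mixed counts beside the 15.3% of all genes. Of 5 Mediator genes outside the naming rule, skd, the MED13 subunit of the kinase module, was marked (rank 2180, 23 bp upstream, a summit in all 3 replicates), and kto, Cdk8, CycC and ix were not. Neither Tbp, nor the TBP relatives Trf and Trf2, nor the testis TAF genes can, mia, nht and sa were marked. Of 18 genes in a list of general transcription factors that also holds TfIIS, 3 were marked (16.7%). They were Ssl1 of TFIIH (rank 114, 179 bp upstream, divergent from Chro), TfIIEbeta (rank 297, 80 bp upstream) and CycH of the TFIIH kinase (rank 5295, 167 bp upstream). Of 12 RNA polymerase II subunit genes 4 were marked (33.3%), led by Polr2B (rank 1196, 121 bp upstream), Polr2H (rank 3243) and Polr2F (rank 4463). In SAGA, which shares several TAFs with TFIID, 7 of 15 genes outside the members were marked (46.7%). They were led by Gcn5, its histone acetyltransferase (rank 1265, 198 bp upstream, divergent from ver), wda, a WD40 protein related to Taf5 (rank 1610, 186 bp upstream, divergent from Pex11c), and Spt3 (rank 3467, 125 bp upstream, divergent from DCAF12). The lists are small and 9 of the 15 SAGA genes have a divergent neighbour, and the counts were not compared between lists.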

How the data were processed

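ChIP-seq peaks were analysed from 5 deposited lists: 3 replicate lists and 1 pooled list of 30000 peaks each, and the IDR list of 7769 peaks (7581 intervals). Per the labels, coordinates are dm6. Per the record files deposited with the samples, every list except the IDR list came from library alignments and 1 shared control. The sources used here name no aligner, peak caller or IDR threshold. Each peak carries the signal value the authors deposited, whose normalization is not stated.

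Start sites came from Ensembl release 115 (18164 genes, 23581 TSS positions), and sequence from the RefSeq genome, where 40 of 40 members had the same chromosome, start and end. Members and gene lists were chosen with earlier results of these data known. Every member is accounted for: full values for marked members, rank and distance for those with weaker promoter summits, and at most 3 genes by rank from other lists. The symbol ix (MED29) was added to the Mediator list after it was matched through a RefSeq synonym. Overlap meant at least 1 bp. Python 3.11.15, numpy 2.4.6, pandas 2.3.3 and matplotlib 3.10.9 were used, and counting was tested on simulated data. Alternatives changed the promoter window, TSS set, peak threshold, replicate support, divergent limit and sequence window.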

Additional observations from a re-analysis of the deposited data

How the results depend on the processing

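The count of marked members was 11 with the 250 bp window, beside 15.3% of all protein-coding genes. At 500 bp it stayed within 1.5 times of 11 (12, with Taf2 added), beside 20.1% of all genes. So it did with the most 5′ TSS alone (9, without MED6 and Taf4), beside 13.2%. It was 5 at 100 bp, 6 with the strongest 3884 IDR peaks, 4 with the strongest 1942, 5 with support from the strongest peaks of every replicate, 4 with 50% of the peak covered in every replicate, and 7 where the interval had to cover a TSS. The shares of all protein-coding genes under those settings were 5.46%, 7.82%, 4.43%, 10.2%, 8.83% and 12.3%. With support from the replicates left after removing 1, the count ran from 5 (without replicate 2) to 7 (without replicate 1 or 3), and the shares of all genes ran from 10.7% to 12.4%. MED30, MED31, Taf4 and Taf5 were marked under every replicate setting, and MED27 and MED16 lost the call whichever replicate was removed.

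At 100 bp the pooled count was 8, beside 16.8% of all protein-coding genes, and the replicate mean was 6.67, beside 17.2%. Replicates 1, 2 and 3 then held 6, 10 and 4 of the 40 members, beside 16.4%, 20.2% and 14.9% of all genes. The member share was thus the lower in replicates 1 and 3 and the higher in replicate 2. With that window, 1 member had a summit in the gene outside the promoter, beside 13.9%. The replicate mean was 9.0 over the strongest peaks, beside 15.3%. Divergent neighbours numbered 16 at 200 bp, beside 12% of all genes. The A or T share was 67.1% at 100 bp to either side, and the median rank was 5181 in replicate 1. The authors' lists give no read depth, a missing peak is not a measured absence, and each count rests on 40 genes and 1 group of 3 libraries. No paired analysis was possible because there is 1 group.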
